A study of Homo sapiens with 2 samples.

Results

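The 10 chromatin remodeller genes SMARCA4, SMARCA5, SMARCC1, ARID1A, ARID1B, CHD1, CHD3, CHD4, CHD7 and CHD8 held 127 NUDT21 eCLIP peaks, of 20499 peaks in the deposited list and 18659 in the bodies of protein-coding genes. A peak was counted for a gene when its midpoint lay in the gene body of GENCODE release 44 on genome build hg38. The study looked at NUDT21 in T-cell acute lymphoblastic leukaemia, and asked by eCLIP which RNAs the protein is crosslinked to in J-Gamma1 cells. J-Gamma1 is an established human line, a clone derived from the Jurkat T-cell leukaemia line and known for its lack of phospholipase C gamma. The series had 2 samples, 1 library made with a NUDT21 antibody and 1 input library, and both came from cells crosslinked on ice by UV irradiation (254 nm, doses of 400 mJ). Lysis took 15 min and the digestion, by 40 U of RNase I, 5 min. Every value below comes from the peaks of the antibody library, since the input had no peak list here. With 1 library there was no replicate, no comparison between groups and no p-value between samples. The intervals given below are exact Clopper-Pearson 95% intervals that cover counting error only, and neighbouring peaks on 1 RNA are not independent of each other.

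NUDT21, also called CFIm25, is the subunit of cleavage factor I that reads UGUA in pre-mRNA, usually upstream of a poly(A) site, and its level is known to shift the choice between proximal and distal poly(A) sites. Chromatin remodellers are ATP-driven machines that slide, evict or exchange nucleosomes. The SWI/SNF complex is built around the ATPase SMARCA4 with the core subunit SMARCC1 and an ARID1A or ARID1B subunit, the ISWI complexes around SMARCA5, the NuRD complex around CHD3 or CHD4, and CHD1, CHD7 and CHD8 are further ATPases of the CHD family. Several of these genes are recurrently mutated in cancer or in neurodevelopmental disorders.

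A peak's height is given here in Score steps. The deposited Score took whole multiples of 0.228, so that a peak of 1 step has the smallest pileup in the list, and the library's depth itself is unknown. The fold enrichment is the deposited ratio of Score plus 1 to local background plus 1. It is thus smaller than the plain ratio of pileup to background, and it is not independent of the pileup. Of markers of the labelled cell type, 4 of 10 T-cell genes had a peak (CD3E, CD247, ZAP70 and PTPRC) and 0 of 8 genes of other blood cells did, while 33.4% of all protein-coding genes had one, so the T-cell count was near the share over all genes. The list holds no measure of how much of each RNA the cells made, so the amount of an RNA and the binding per RNA cannot be told apart.

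The sequences below, read from hg38 on the strand of the gene and printed 5′ to 3′ as RNA, show the main features of the peaks. The first group holds the UGUA motifs, in capitals, of the 3 3'UTR peaks that had the motif and lay in no coding sequence.
SMARCA4, chr19:11062164-11062193 (+): ccacuccuccuacUGUAuuuuauuggacag
ARID1A, chr1:26781764-26781793 (+): cuuggugcgaugcUGUAcaggucucUGUAa
CHD8, chr14:21385297-21385326 (−): cacagacuaUGUAgcgcuggcccuagccuc

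Most 3'UTR peaks had no UGUA. The next group holds the central bases of a pair of pyrimidine-rich 3'UTR peaks of SMARCC1, of 11 and 15 steps, and the 3'UTR peak of CHD4, the sole peak of this kind that held the poly(A) signal AAUAAA (capitals).
SMARCC1, chr3:47586809-47586838 (−): uuuuuccucuuguccuucccucccuucugu
SMARCC1, chr3:47588040-47588069 (−): cuccucuuaccaccccucucucugacacuu
CHD4, chr12:6570163-6570192 (−): gcggcuaaaugaAAUAAAguggaaaaaaaa

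The last group shows coding peaks, where most of the signal lay. The first lines are from the highest peaks of CHD4, with UGUA in capitals, and of SMARCC1, which had no UGUA. The CHD8 and SMARCC1 lines that follow hold runs of the purine hexamer GAAGAA (capitals), and the last line a UGUA that spans the end of a SMARCC1 exon. These last 3 peaks were chosen after their values were seen.
CHD4, chr12:6594482-6594511 (−): gccuugggaaaacUGUAcagacagcagucu
SMARCC1, chr3:47661317-47661346 (−): ucuggagagcagcugcauugcaggcacagg
CHD8, chr14:21415813-21415842 (−): agaugauGAAGAAGAAGAAgagguggaugu
SMARCC1, chr3:47635260-47635289 (−): aagugauacuggGAAGAAGAAaguagaaca
SMARCC1, chr3:47622192-47622221 (−): agagagaaagaagcUGUAaguauuuggaau

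All 10 remodeller genes had a peak and 10 of 10 had a peak of 5 or more steps, against 33.4% and 14.4% of all 19362 protein-coding genes. A gene with any peak had a median of 2 peaks and an upper quartile of 4. SMARCA4 had the most of the 10 with 21 peaks, and 39 genes of the genome had more. CHD1 and CHD3 had 17 each, SMARCC1 and ARID1A 16 each, CHD8 11, ARID1B and CHD7 9 each, CHD4 8 and SMARCA5 3. SMARCA5 was thus the member closest to an ordinary gene, with 1634 genes above it. The 10 are long, multi-exon genes, and gene length was not matched in these counts. The 10 were also chosen with earlier results of these data known, so their counts describe the choice and are no test against all genes.

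**Figure D1:**
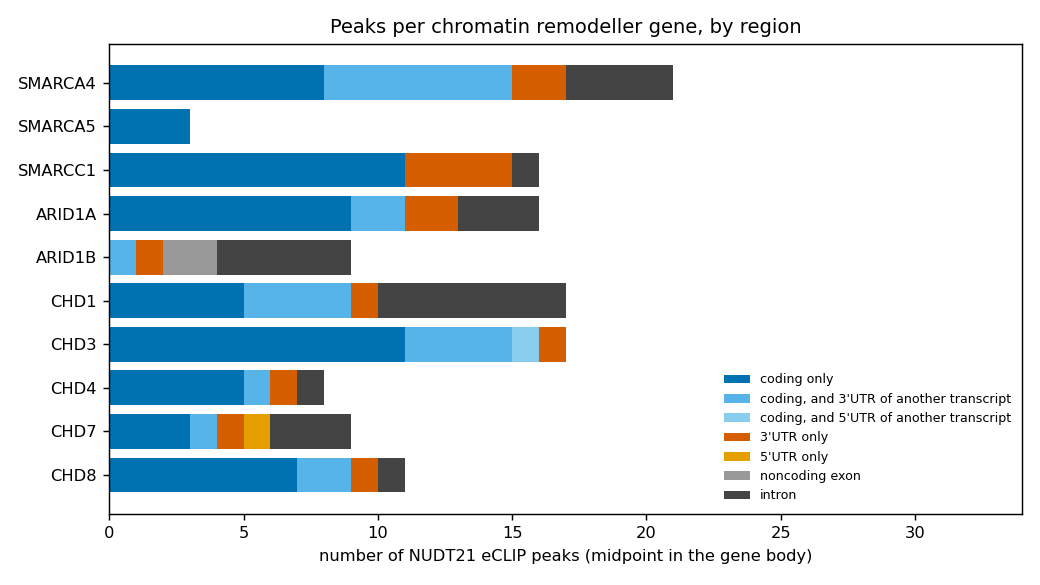
Number of NUDT21 eCLIP peaks in each of the 10 remodeller genes (horizontal axis), coloured by the region that holds the midpoint of the peak. Coding peaks (blue) make up the greater part of the bars of 7 genes and the whole bar of SMARCA5, while ARID1B has 1 coding peak and 5 intronic ones.

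Peaks of these genes were higher than the usual peak. The member peaks ran from 1 to 20 steps with a median of 9, against a median of 3 over all peaks in protein-coding genes. In all, 103 of 127 peaks (81.1%, interval 73.2 to 87.5) had 5 or more steps, against 45.2% of all peaks in protein-coding genes. The fold enrichment ran from 1.17 to 4.24 with a median of 2.47, against a median of 1.61, and 96 of 127 peaks (75.6%) reached a fold enrichment of at least 2, against 40.6%. Enrichment of this size did not pass the false discovery rate given in the list. The deposited FDR was under 0.05 for 0 of the 127 peaks, which allows a share of up to 2.36% by the limit of 3 counts and 2.86% by the exact interval, and for 0.102% of all peaks in protein-coding genes (19 peaks). It was under 1 for 4 member peaks, each at 0.891, of which 2 were in SMARCA4 and 2 in SMARCC1.

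**Figure D2:**
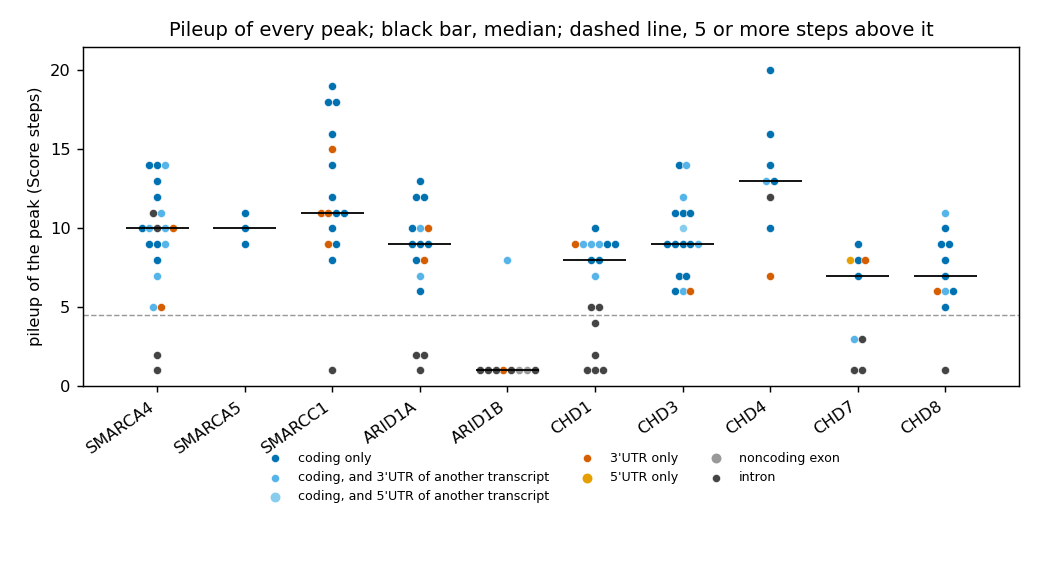
Pileup of each of the 127 peaks in Score steps (vertical axis) by gene, coloured by region, with the gene's median as a black bar and a dashed line below 5 steps. The ARID1B peaks sit at 1 step apart from a coding peak of 8, while the 17 CHD3 and 8 CHD4 peaks all stand at 6 steps or more.

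Most member peaks lay in coding sequence. The midpoint fell in coding sequence of at least 1 transcript in 85 of 127 peaks (66.9%, interval 58.0 to 75.0), against 33.6% of all peaks in protein-coding genes, and in an intron in 25 (19.7%, interval 13.2 to 27.7), against 39.6%. A 3'UTR of any transcript held 36 peaks (28.3%, interval 20.7 to 37.0), which is close to the 30.0% over all peaks. For 22 of those 36 the same bases are also coding, and for 21 of the 22 the 3'UTR is annotated in nonsense-mediated decay transcripts alone. Only 14 peaks (11.0%, interval 6.16 to 17.8) were in a 3'UTR and in no coding sequence, against 20.4%. When a 3'UTR was given precedence over coding sequence, the coding share was 48.8%. Among peaks of 5 or more steps, 81.6% of the members' were coding against 61.4% over all genes.

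Coding and 3'UTR-only peaks were mostly tall. Of the 85 coding peaks 84 had 5 or more steps (98.8%), against 82.4% of coding peaks in all protein-coding genes. Of the 14 3'UTR-only peaks 13 did (92.9%, interval 66.1 to 99.8; 57.2% over all genes), with a median of 8.5 steps against 9 for coding peaks. Intron peaks were low, with 5 of 25 at 5 or more steps and a median of 1 step. The 24 peaks under 5 steps were made up of 20 intronic peaks, 2 in noncoding exons, 1 coding and 1 in a 3'UTR, and 17 of them were at 1 step and the lowest fold enrichment of 1.17. The low peaks were broad, with a median length of 245 nt against 72 nt for the members' peaks of 5 or more steps. Each of the 5 taller intron peaks touched an exon. Their midpoints were 7 and 3 nt from an exon in SMARCA4, 2 nt in CHD4, and 100 and 88 nt in CHD1.

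Along the mRNA the coding peaks were spread out. Of 83 peaks in coding sequence of the canonical transcripts, 32 lay in its 5′, 26 in its middle and 25 in its 3′ part of equal length. A peak midpoint fell in 75 of the 319 canonical exons. Those exons had a median length of 177 nt, against 137 nt for the 244 without a peak, and 52 of the 85 coding peaks were wholly within exons. The share of the canonical mRNA covered by peaks ran from 0.747% in ARID1B to 26.6% in SMARCA4.

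**Figure D3:**
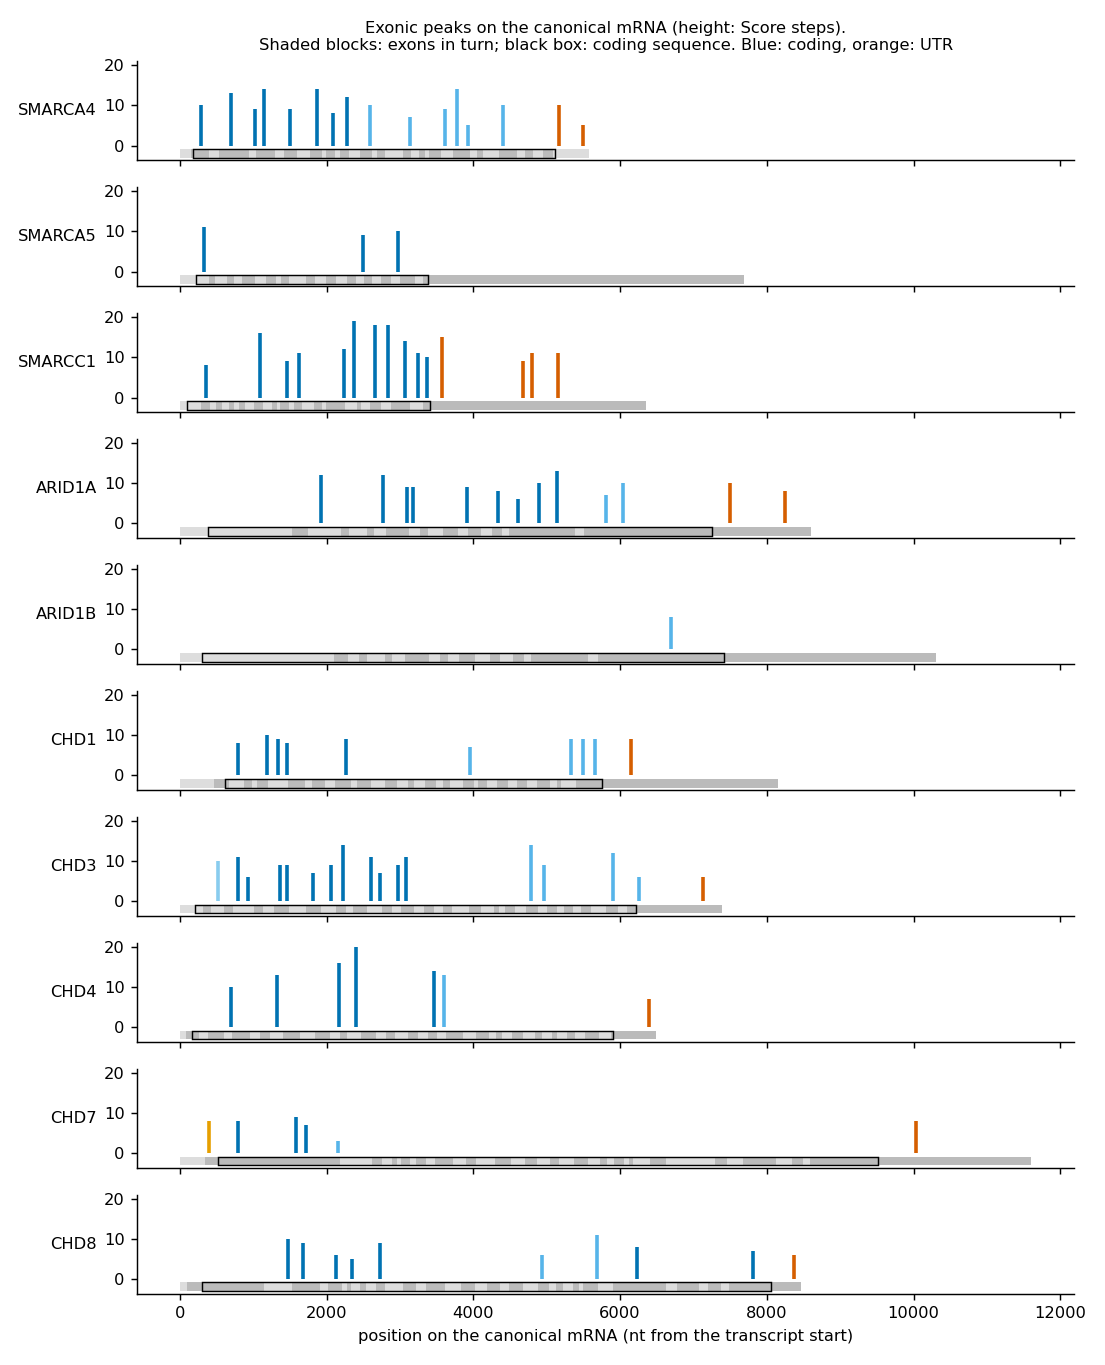
Exonic peaks placed on the canonical mRNA of each gene, by nt from the transcript start (horizontal axis) and with bar height in Score steps (vertical axis). Blue bars are coding peaks and orange bars are UTR peaks. The coding peaks of SMARCA4, SMARCC1 and CHD3 run along most of the coding sequence, those of CHD7 lie at its 5′ end, and the 3'UTRs of SMARCA5 and ARID1B carry no bar.

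Among the SWI/SNF genes, SMARCA4 (chr19:10960932-11079426, + strand), the ATPase BRG1 that drives the complex, had 19 of its 21 peaks at 5 or more steps. Its peaks ran from 1 to 14 steps with a median of 10, and from 1.17 to 3.82 in fold enrichment with a median of 2.67. They covered 14 of 35 canonical exons, and 15 of the 21 were coding. Its 3 highest peaks were tied at 14 steps. Those in exon 10 (chr19:10996270-10996353) and exon 26 (chr19:11033300-11033378) each had a fold enrichment of 3.82 and a deposited FDR of 0.891, and that in exon 6 (chr19:10987692-10987864) a fold enrichment of 3.66. UGUA was rare in the gene's peaks, with 3 of 21 holding it and 0 UGUA in 1334 nt of coding peaks. Its 2 3'UTR peaks lay at both ends of a short 3'UTR of 457 nt. The one near the stop codon (chr19:11061825-11061892) had 10 steps and no UGUA. The one 77 nt before the canonical transcript end (chr19:11062161-11062232) had 5 steps and the UGUA printed above.

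SMARCC1 (chr3:47585269-47782106, − strand), the BAF155 scaffold subunit, had 16 peaks, of which 15 had 5 or more steps, with a median of 11 and a maximum of 19. Its fold enrichments ran from 1.17 to 4.24 with a median of 2.62. The highest pileup was in exon 21 (chr3:47661308-47661355), at 19 steps and a fold enrichment of 2.66, over a local background of 4.40 steps. The highest fold enrichment among the 127 peaks was in exon 10 of the same gene (chr3:47706385-47706519), at 4.24 with 16 steps (chosen after its values were seen). Pileup and enrichment thus ranked the peaks of this gene differently. A local background over 2 steps stood under 9 of the 103 taller member peaks, 5 of them in SMARCC1 and 4 in CHD4.

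SMARCC1 was the member with the most peaks in a 3'UTR and in no coding sequence. All 4 lay in its 3'UTR of 2940 nt, which has 5 UGUA, or 1.70 per kb, the lowest density of the 10. They had 15 steps (chr3:47588026-47588082), 9 steps (chr3:47586904-47586996), 11 steps (chr3:47586794-47586852) and 11 steps (chr3:47586448-47586496), and 0 of the 4 held UGUA. The nearest of them was 1203 nt before the canonical transcript end. The 4 lay 464 to 1118 nt from the nearest annotated transcript end. A pair of these peaks are the pyrimidine-rich ones printed above. In 2 coding peaks of the gene, of 11 and 18 steps, the UGUA spanned the edge of an exon, where its last bases are the start of the intron.

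ARID1A (chr1:26693236-26782104, + strand), the AT-rich-interaction subunit often mutated in tumours, also had 16 peaks, 13 of them with 5 or more steps. Peaks ran from 1 to 13 steps with a median of 9, and the highest was in exon 18 (chr1:26774830-26775131), with 13 steps and a fold enrichment of 3.32. The 2 3'UTR peaks had 10 steps (chr1:26780979-26781026) and 8 steps (chr1:26781720-26781797). The latter held 2 UGUA and lay 346 nt before the canonical end, in a 3'UTR of 1348 nt with 17 UGUA.

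Its paralogue ARID1B (chr6:156776020-157210779, + strand), which takes the same place in alternative forms of the complex, looked different. Of its 9 peaks 8 were at 1 step, and these lay in introns (5), noncoding exons (2) and a 3'UTR of a minor transcript (1). The sole peak of 5 or more steps was in the last exon, of 4613 nt, in coding sequence (chr6:157207119-157207195), with 8 steps and a fold enrichment of 2.47. UGUA was in 7 of the 9 peaks, all of them at 1 step. The canonical 3'UTR of 2888 nt had 21 UGUA and 0 peaks. At the level of counts, ARID1A had 13 and ARID1B 1 peak of 5 or more steps. Whether the cells made less ARID1B RNA was not tested.

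SMARCA5 (chr4:143513702-143557486, + strand), the ISWI ATPase SNF2H, had 3 peaks, all in coding exons. They had 11 steps in exon 1 (chr4:143513924-143514124), 9 steps in exon 17 and 10 steps in exon 21, with fold enrichments of 2.83, 2.62 and 2.75. Their median of 10 steps compares with 9 over all member peaks. The exon 1 peak also lies in the antisense gene SMARCA5-AS1, and the list gives no strand. The SMARCA5 3'UTR is the longest of the 10 with 4302 nt and 38 UGUA, and it had 0 peaks.

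CHD1 (chr5:98853985-98929007, − strand), which recognises methylated histone tails at transcribed genes, had 17 peaks, 12 of them with 5 or more steps. Peaks ran from 1 to 10 steps with a median of 8. Its highest peak was in exon 6 (chr5:98901163-98901229), with 10 steps and a fold enrichment of 2.86. It had the most intron peaks of the 10, with 7, and 7 of its 17 peaks held UGUA. The 3'UTR of 2395 nt had 26 UGUA and 1 peak (chr5:98855961-98856011), of 9 steps and without UGUA. That peak lay 2001 nt before the canonical transcript end and 34 nt from the nearest annotated transcript end.

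The NuRD ATPase CHD3 (chr17:7884796-7912760, + strand) had 17 peaks, 17 of them with 5 or more steps and 16 in coding sequence. They ran from 6 to 14 steps with a median of 9, and over 13 of 40 canonical exons. The 2 highest were tied at 14 steps, in exon 12 (chr17:7898004-7898125) with a fold enrichment of 3.60 and in exon 30 (chr17:7906915-7906975) with 3.03. UGUA was in 1 of the 17 peaks. Its 3'UTR-only peak (chr17:7912477-7912535) had 6 steps and no UGUA.

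CHD4 (chr12:6570082-6614524, − strand), the other NuRD ATPase, had fewer but taller peaks, 8 of them with a median of 13 steps and a range of 7 to 20. The highest member peak by pileup was in its exon 15 (chr12:6594446-6594625), with 20 steps, a fold enrichment of 2.78 and a local background of 4.38 steps. That peak held 2 UGUA, the only ones in the peaks of the gene. The 3'UTR peak (chr12:6570151-6570202) had 7 steps, lay 94 nt before the canonical transcript end and held AAUAAA but no UGUA. All 8 peaks also lie in another annotated protein-coding gene of the same strand, and the counts cannot be split between them.

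CHD7 and CHD8 are large ATPases known from developmental disorders. CHD7 (chr8:60678740-60868028, + strand) had 9 peaks, 5 of them with 5 or more steps, and the exonic ones lay in 2 of its 38 canonical exons, exon 2 and exon 38. Its highest peak was in exon 2 (chr8:60742474-60742524), with 9 steps and a fold enrichment of 2.78. A peak in its 5'UTR had 8 steps, and the 3'UTR peak (chr8:60866433-60866480) had 8 steps and no UGUA. That 3'UTR peak lay 1572 nt before the canonical transcript end and 18 nt from the nearest annotated transcript end. CHD8 (chr14:21385194-21456126, − strand) had 11 peaks, 10 of them with 5 or more steps, in 9 of 38 canonical exons. Its highest peak was in exon 30 (chr14:21394897-21394956), with 11 steps and a fold enrichment of 2.82. The CHD8 3'UTR is the shortest of the 10 with 414 nt. Its peak (chr14:21385279-21385326), of 6 steps, held UGUA and had its midpoint 103 nt before the canonical transcript end.

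UGUA was less common in the members' peaks than in the list. It was present on the gene's strand in 37 of 127 peaks (29.1%, interval 21.4 to 37.9), against 44.5% of all peaks in protein-coding genes. On the opposite strand it was present in 33 (26.0%), against 40.7%. The share went with the region. UGUA was in 12 of 85 coding peaks (14.1%, interval 7.51 to 23.4; 21.2% over all genes), in 3 of 14 3'UTR-only peaks (21.4%, interval 4.66 to 50.8; 49.8%) and in 20 of 25 intron peaks (80.0%, interval 59.3 to 93.2; 62.3%). Median peak lengths were 76, 58 and 251 nt in the same order, so that the intron peaks, with the highest share, were also the longest. Over all genes the matching lengths were 82, 111 and 264 nt. For all regions together the median was 78 nt in the members and 145 nt over all genes. The shares are thus not matched for peak length. Among peaks of 5 or more steps, 17 of 103 held UGUA (16.5%), against 27.1% over all genes. Among lower peaks 20 of 24 did (83.3%), against 58.8%, so the lower peaks had the higher share in the whole list too. Of the 54 UGUA in member peaks, 33 were in intron peaks.

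**Figure D4:**
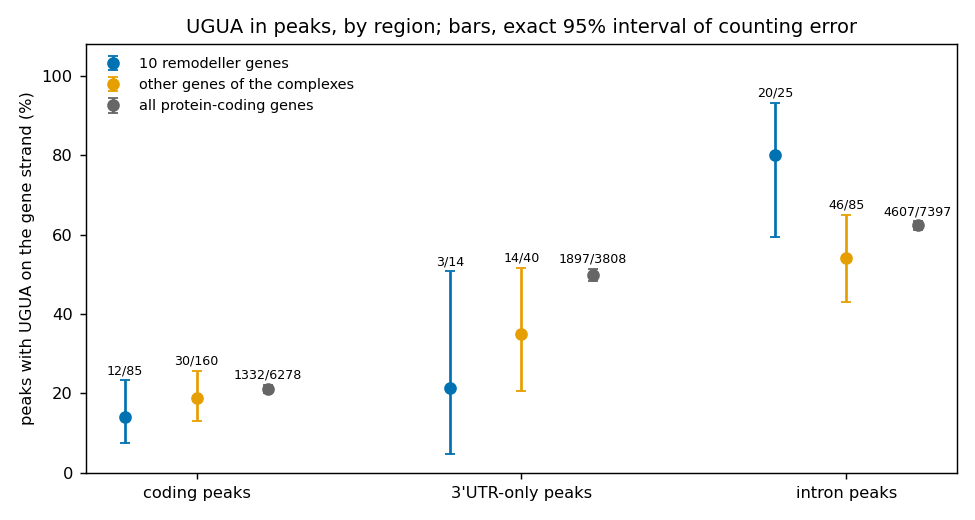
Percent of peaks with UGUA on the gene strand (vertical axis) in coding, 3'UTR-only and intron peaks, for the 10 remodeller genes, other genes of the same complexes and all protein-coding genes, with exact 95% intervals of counting error and the counts above each point. For the 10 genes the share is 14.1% in coding, 21.4% in 3'UTR-only and 80.0% in intron peaks.

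Counted per kb, which takes peak length into account, UGUA did not stand out in the exonic peaks. It occurred 1.85 times per kb in the exonic peaks (17 UGUA) and 4.22 times per kb in the exons outside peaks, a ratio of 0.439, against 0.889 over all genes. Of the 667 UGUA in the exons outside peaks, 243 were in ARID1B, which had 653 nt of exonic peaks. Coding sequence held less UGUA per kb than 3'UTRs. The cause of the pooled ratio was not tested, but the ratio within each of these regions was closer to even. It was 0.760 in coding sequence (1.30 against 1.71 per kb; all genes 0.872) and 0.731 in 3'UTRs that are not coding (4.76 against 6.51 per kb, on 4 UGUA; all genes 0.997). CHD8, CHD4 and CHD7 went the other way in coding sequence, with ratios of 3.34, 3.24 and 1.80 that rest on 4, 2 and 1 UGUA.

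The annotated transcript ends can be set beside this. The canonical 3'UTRs of the 10 genes add up to 18603 nt with 137 UGUA, or 7.36 per kb, and the 14 peaks with a midpoint there held 4 of these. Of the 14 peaks 13 were 3'UTR-only, and 1 in CHD3 (6 steps) was coding in another transcript. In the last 100 nt before the canonical transcript end, 7 of 10 genes had UGUA and 8 of 10 had AAUAAA. A peak lay within 150 nt of that end in SMARCA4, CHD4 and CHD8, which are the members with the shortest 3'UTRs. Counting the ends of all annotated transcripts, 8 of 14 3'UTR-only peaks (57.1%, interval 28.9 to 82.3) were within 150 nt of an end, against 24.1% over all genes. These ends come from the annotation, nonsense-mediated decay transcripts included, and are not measured poly(A) sites. The members have 3 to 55 transcripts each, and the number of ends was not matched. A 3'UTR-only peak was found in 9 of the 10 genes, against 33.5% of genes with a peak. The same 9 had a peak in a 3'UTR of any kind, against 42.1%. These gene counts were not matched for peak number, which was 3 to 21 in the members against a median of 2 in genes with a peak. Per peak, the 3'UTR-only share was 11.0% in the members and 20.4% over all genes. In ARID1B the 3'UTR-only peak was at 1 step.

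**Figure D5:**
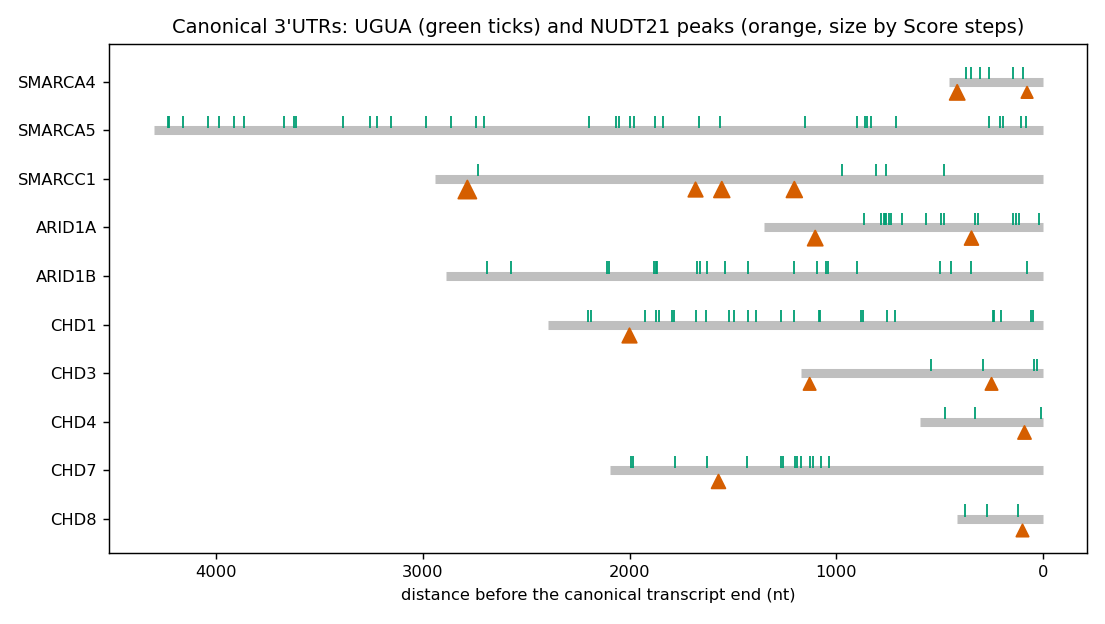
Canonical 3'UTR of each gene (grey line) by distance before the transcript end in nt (horizontal axis), with each UGUA as a green tick and each peak with its midpoint there as an orange triangle whose size follows the pileup in Score steps. The 3'UTRs of SMARCA5 and ARID1B hold 38 and 21 UGUA and no peak, and that of SMARCC1 holds 4 peaks and 5 UGUA.

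In base composition the coding peaks had more C and less U than the coding sequence of the same genes outside peaks. C made up 29.7% of the bases in coding peaks and 25.0% outside, and U 17.2% and 20.2%. Over all genes C was 25.4% and 25.1%, and U 19.9% and 22.3%, so the lower U was also seen in the whole list. Purines (A and G) were 1.59 percentage points lower in the peaks (53.2% against 54.8%), and over all genes 2.05 points higher. By gene they were higher in the peaks of CHD8 (4.85 points) and ARID1B (19.3 points, on 1 coding peak), and lower in all the other members. The hexamer GAAGAA, a purine-rich motif of exonic splicing enhancers, was in 12 of 85 coding peaks (14.1%), against 14.8% over all genes. Coding peaks held 2.21 of it per kb and the coding sequence outside them 2.38, which gives a ratio of 0.931, against 1.47 over all genes. The members differed, with a ratio of 4.87 in CHD8 and 4.15 in SMARCC1, each on 5 GAAGAA in peaks, and 0 in the coding peaks of ARID1A, ARID1B, CHD4 and CHD7. The 3'UTR-only peaks had a GC content of 49.9%, on 841 nt, against 39.6% in the same regions outside peaks. The 10 genes were pooled for this GC content and not matched, and 4 of the 14 peaks were in SMARCC1. Over all genes the values were 42.4% and 41.8%.

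Other genes of remodelling complexes were counted in the same way. Of 73 further subunits and Snf2-type ATPases, 51 had a peak and 36 a peak of 5 or more steps. Over all protein-coding genes these shares were 33.4% and 14.4%. By complex, a peak was found in 15 of 22 SWI/SNF genes, 7 of 10 ISWI genes, 10 of 16 genes of the CHD family and NuRD, 10 of 16 of the INO80, SRCAP and TIP60 group, and 9 of 9 other Snf2-type ATPases. The genes with the most peaks of 5 or more steps were SRCAP, the ATPase that deposits H2A.Z, with 19, the ISWI partners BAZ1B with 17 and BPTF with 16, TRRAP, a scaffold of histone acetyltransferase complexes, with 15, and HELLS, a lymphoid Snf2-type ATPase, with 13. The 73 genes had 297 peaks. Of these, 206 (69.4%, interval 63.8 to 74.6) had 5 or more steps, against 45.2% of all peaks in protein-coding genes. Coding sequence held 160 (53.9%, interval 48.0 to 59.6), against 33.6%, and UGUA was in 95 (32.0%), against 44.5%. The GAAGAA ratio was 1.25 in the 73 genes, against 1.47 over all genes. Purines were 1.58 points higher in their coding peaks than outside them, and over all genes 2.05 points higher.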

How the data were processed

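J-Gamma1 eCLIP libraries were sequenced on a DNBSEQ platform. Per the labels and methods the authors trimmed reads with fastp, removed duplicates by molecular identifier and ribosomal RNA reads, mapped to hg38 and called peaks with MACS2. A q-value limit of 0.05 is stated for the calling, yet the list as deposited holds peaks with an FDR of 1. The aligner, and use of the input as a control, are not given in the sources used here. The deposited list gave position, a Score, a fold enrichment, a p-value and an FDR (q-value), with no strand. The deposited Score is a signal in whole steps of 0.228, the deposited fold is the ratio of Score plus 1 to background plus 1, and background was solved from it. Total depth is unknown.

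Groups followed the treatment label. Regions came from all transcripts of GENCODE 44 at the midpoint of a peak, and shares are given for coding sequence of any transcript and for 3'UTR first. The comparison was with the peaks of all 19362 protein-coding genes, the 10 included. UGUA, the purine hexamer GAAGAA, the poly(A) signal AAUAAA and its common variant AUUAAA were counted on the strand of the gene. No test across samples was possible with 1 library. The work used Python 3.11.15 (pandas 2.3.3, numpy 2.4.6), exact intervals from scipy 1.17.1, sequence reading by pysam 0.24.0 and figures by matplotlib 3.10.9, and the region, motif and interval code was tested on simulated data. The text names each gene's highest peak by Score and each 3'UTR-only peak of 5 or more steps. Members and lists were chosen with earlier results of these data known. Alternatives changed the peak threshold (5 steps, fold of 2, FDR of 0.05), the assignment by midpoint, the order of regions, the transcripts used, peaks in other genes, merging within 100 nt, extension by 50 nt, and left out each gene in turn.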

Additional observations from a re-analysis of the deposited data

How the results depend on the processing

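Of 125 recomputed values 105 stayed within their interval or within 1.5 times the count, and 20 did not. Leave-one-out values made up 70 of the 105. A change of direction was defined only for the purine difference and the UGUA and GAAGAA density ratios, and 0 of these values changed direction. The share of peaks in 3'UTRs (28.3%) and the share in coding sequence (48.8% with 3'UTRs first) depended on the order of regions. They were 11.0% and 66.9% with coding sequence in precedence and 11.0% and 65.4% with 1 transcript per gene. The 15 3'UTR peaks within 150 nt of an annotated end then became 8 and 3. The purine difference in coding peaks was -3.15 points with 3'UTRs first, -1.59 with coding sequence first and -1.72 with 1 transcript. With 3'UTRs first, the share in coding sequence was 60.2% among peaks of 5 or more steps and 62.5% at a fold of at least 2. Under the same 2 thresholds the UGUA share fell from 29.1% to 16.5% and 15.6%. The share of peaks of 5 or more steps is 100% under that threshold by construction. UGUA was in 44.9% of peaks extended by 50 nt. With peaks of 5 or more steps and coding sequence first together, chosen after seeing the data, the values were 12.6% for 3'UTRs, 81.6% for coding sequence, -1.54 points for purines and 8 peaks near an end. At an FDR under 0.05 there were 0 peaks and 0 genes with a 3'UTR peak, so that no share could be given. The causes were not tested beyond what each setting does by construction.

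Leaving out each gene in turn kept all 70 values within their limits, which were wide for this purpose. SMARCA4 held the most peaks, 21 of 127, so the count could not pass its 1.5-fold limit. Shares were judged against the interval of the full set. There were 106 to 124 peaks, with a median fold of 2.45 to 2.55. Of these peaks 78.2% to 86.4% had 5 or more steps and 25.4% to 32.7% had UGUA. With 3'UTRs first, 25.5% to 29.0% lay in 3'UTRs and 45.9% to 52.5% in coding sequence. In that order the purine difference was -4.14 to -2.40 points. The values with coding sequence first were not recomputed in this way. No paired analysis was possible because the series gave a peak list for 1 library only. Depth is unknown, peaks of 1 step rest on little signal, and without strand a read from an antisense RNA cannot be told apart.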

Other observations

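Gaps between neighbouring peaks were not evenly distributed. Among the 117 pairs of neighbouring peaks in the 10 genes, 6 were separated by exactly 48 nt, and no other gap between 28 and 68 nt occurred more than 2 times. In the whole list 755 of 20469 neighbouring pairs had a gap of 48 nt, where the most frequent other gap in that range had 29. The shortest member peaks were also 48 nt long. In 3 member pairs the starts were 476 nt apart, as in 2000 pairs of the whole list. These spacings are values of the deposited list as a whole, and their origin was not tested.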
